A study of Homo sapiens with 4 samples.

Results

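The 10 genes described here, S100P, S100A2, S100A3, S100A4, S100A6, S100A10, S100A11, S100A13, S100A14 and S100A16, encode S100 calcium-binding proteins. They were found among the 20307 genes of the table by mapping Ensembl identifiers to symbols, and all 10 were listed. The values are levels of ribosome footprints, the RNA fragments that ribosomes halted by cycloheximide shield from RNase I, in PANC-1, an established human pancreatic ductal adenocarcinoma cell line, in 2 negative control libraries and 2 libraries of cells depleted of FBXO32, an F-box protein that brings substrates to an SCF ubiquitin ligase. The labels give no further genotype, vector, clone or time of depletion, and the bioreplicates of a group are not said to be separate cultures. P-values therefore measure the spread between these libraries, which may be technical. Each level is a TPM value, the share of a library assigned to a gene scaled by length, and it carries no read depth. The scaling is meant to let genes be compared. Which length was used is not given in the sources used here, so orders and ratios between genes hold on that scale only. The list was selected on TPM values of this contrast, with S100P, S100A4 and S100A10 known to be higher in depleted libraries, so the differences of its members are given as a description and no test of them is used as support.

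S100 proteins are small dimers in which each chain carries a pair of EF-hands, helix-loop-helix units that hold calcium. Calcium opens a groove through which the dimer binds a partner such as an annexin, a myosin or a cytoskeletal linker. S100A10 is an exception, since its loops have lost calcium-binding residues and it stays in the open form bound to annexin A2. In pancreatic cancer S100P, S100A4 and S100A6 are known as markers that are often raised in the tumour cells.

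The loops of the C-terminal EF-hand show this split among the members. In 8 of the 10 coding sequences the loop had an aspartate codon at the first position, codons for aspartate, asparagine or serine at the third and the fifth, and a glutamate codon at the twelfth, and in S100A10 and S100A14 it did not. The 36 bases of each loop below are read 5′ to 3′ from GENCODE release 29 transcripts on GRCh38, with the codons of those 4 positions in capitals, and are shown to place S100A10 and S100A14 beside members with the usual loop.
S100P, chr4:6696938-6696973, plus strand: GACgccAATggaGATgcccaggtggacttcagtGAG
S100A4, chr1:153543843-153543878, minus strand: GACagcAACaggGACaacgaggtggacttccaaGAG
S100A6, chr1:153534753-153534788, minus strand: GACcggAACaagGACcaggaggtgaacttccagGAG
S100A10, chr1:151983244-151983279, minus strand: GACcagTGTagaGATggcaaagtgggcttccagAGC
S100A14, chr1:153614951-153614986, minus strand: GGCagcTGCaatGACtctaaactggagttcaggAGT
S100P, the member with the largest difference between the groups, has a coding sequence of 95 codons without the stop codon. Its 285 bases are printed whole, with the loop in capitals, to show how short a stretch a coding footprint of this gene can come from.
S100P: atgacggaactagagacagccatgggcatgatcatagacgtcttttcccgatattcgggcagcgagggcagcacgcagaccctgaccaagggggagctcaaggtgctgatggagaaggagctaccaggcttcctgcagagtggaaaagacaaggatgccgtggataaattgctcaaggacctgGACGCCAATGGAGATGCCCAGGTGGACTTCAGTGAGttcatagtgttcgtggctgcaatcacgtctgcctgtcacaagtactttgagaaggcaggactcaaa

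The coding sequences of most members were distinct at the length of a footprint. The longest coding sequences of the 10 genes ran from 270 to 315 nt, and over the 45 pairs their identity was between 43.4% (S100A10 and S100A14) and 69.0% (S100A2 and S100A4), with a median of 53.6%. Of all 28-nt windows of a member's coding sequence, none occurred in an annotated transcript of another gene for 8 members. For S100A13, 42.7% of windows were shared with AL162258.1, and for S100A11, 21.2% were shared, among others with the pseudogenes S100A11P1 and S100A11P2. The values of S100A11 and S100A13 are therefore uncertain where the counting split reads. The annotated S100A4 gene also spans S100A3 on the same strand, but their coding sequences share no 28-nt window. S100A1 (plus strand, 153627926 to 153632039) overlaps S100A13 on the opposite strand, and whether the counting used strand is not given in the sources used here, so reads from that overlap cannot be told apart.

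Of the members, 9 lie on chromosome 1 between 151982915 and 153631360 (GRCh38) and S100P lies on chromosome 4, and 8 of the 10 members had higher footprint levels in each depleted library than in each control. Among the 9 members tested, the median log2 fold change was 1.04, against -0.16 over all 11623 tested genes. Of these members 7 passed the threshold upward (limma, adjusted p under 0.05) and 0 passed downward, where 6.21% of all tested genes passed upward and 19.5% downward. At an unadjusted p under 0.05 these counts were 7 and 0, where 1374 of the 11623 tested genes were higher and 2956 lower. A higher TPM can come from more mRNA or from more ribosomes on each mRNA. As TPM is a share of its library, it can also come from lower values of other genes, and these sources were not told apart. In these bulk libraries a change in the mix of cells cannot be told apart from a change per cell either. Groups that did not overlap, with the depleted libraries higher, occurred in 26.8% of all tested genes. Nothing is read from these counts, because the choice of members used this contrast.

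**Figure D1:**
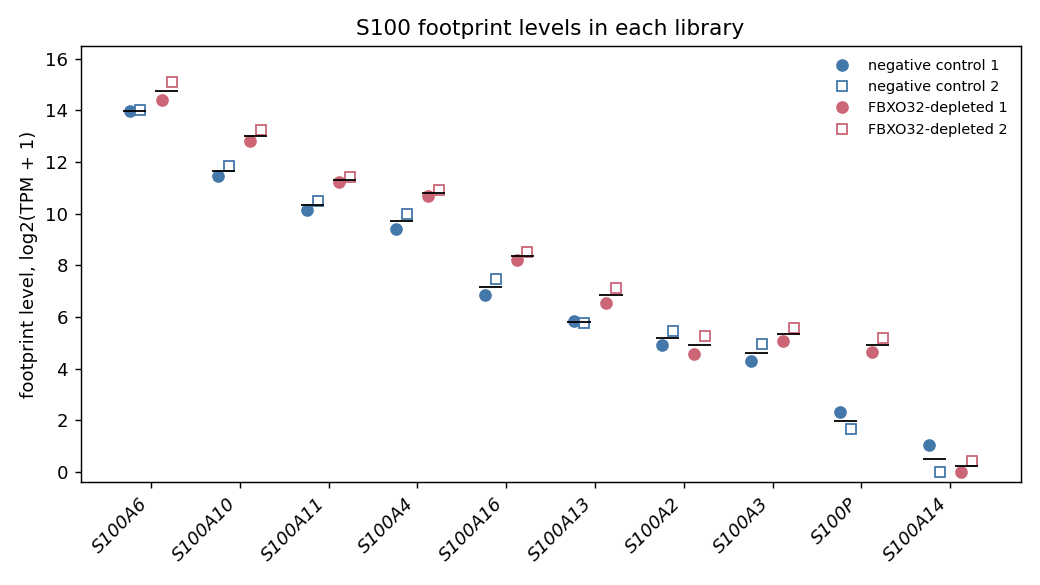
Footprint level as log2(TPM + 1) of the 10 S100 genes, in order of their mean TPM in the negative controls; circles are replicate 1, squares replicate 2, blue the negative controls, red the FBXO32-depleted libraries, and black bars group means. The groups are apart for 8 genes, and S100P, at 4.02 and 2.13 TPM in the controls, reaches 23.8 and 35.8 TPM in the depleted libraries.

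In the controls the family ran from the top of the table to a listed 0. S100A6, also called calcyclin, was the highest gene of the whole table in both groups, with 16227 ± 354 TPM (SD, n = 2) in the controls. S100A10 followed with 3247 ± 583 TPM, then S100A11 with 1288 ± 212 TPM and S100A4 with 849.6 ± 232 TPM. S100A16 had 145.8 ± 44.8 TPM and S100A13 had 54.6 ± 2.45 TPM, and S100A2 had 36.1 ± 10.1 TPM and S100A3 had 24.1 ± 8.0 TPM. S100P, at 3.08 ± 1.33 TPM, and S100A14, at 1.06 TPM and a listed 0, closed the order. Of the neighbours in this order, S100A2 and S100A3 had overlapping control values and did not differ beyond their spread. In the depleted libraries the first 6 places were the same, and S100A3, S100P and S100A2 came next with overlapping values around 39.9 ± 10.3, 29.8 ± 8.53 and 29.8 ± 10.2 TPM.

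Together the 10 genes took 2.09% and 2.29% of all TPM in control libraries, against 3.37% and 5.04% in depleted ones. S100A6 alone made up 76.6% and 72.0% of that sum in control libraries, against 65.3% and 70.3% in depleted ones. The share held by S100A10 was 13.6% and 16% among controls, and 21.4% and 19.1% after depletion, so it was higher in both depleted libraries. S100A4 held 3.29% and 4.43% against 4.88% and 3.87%, with overlapping groups.

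S100P, a placental S100 protein that activates the membrane linker ezrin and is secreted as a ligand of the receptor RAGE, differed most. S100P (ENSG00000163993, chromosome 4, 6693069 to 6697170, plus strand) had 4.02 and 2.13 TPM in control libraries against 23.8 and 35.8 TPM in depleted ones. The lowest depleted value was well above the highest control value, and the ratio of the group means was 9.69. On the log2(TPM + 1) scale, which understates the change of a low gene, the fold change was 2.93 ± 0.46 (SE). Its place among all genes went from 9950 in the controls to 3560 in the depleted libraries. In the alternative runs, including the removal of any single library, its log2 fold change lay between 2.28 and 3.27. These runs refit the values by which S100P was chosen, so they are a description and not support.

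S100A10, the light chain of the annexin A2 heterotetramer that brings plasminogen to the cell surface, showed the next largest difference. S100A10 (ENSG00000197747, chromosome 1, 151982915 to 151994390, minus strand) was at 2834 and 3659 TPM in control libraries against 7213 and 9614 TPM in depleted ones. Both depleted values lay above both control values, with a log2 fold change of 1.37 ± 0.33. It went from place 35 to place 5 among all genes. Without negative control replicate 1 the log2 fold change was 1.19 and without depleted replicate 2 it was 1.16, and in both cases it no longer passed.

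S100A4, known as metastasin, which binds non-muscle myosin IIA and is linked to cell motility, was higher by a similar amount. S100A4 (ENSG00000196154, chromosome 1, 153543613 to 153550136, minus strand) stood at 685.7 and 1014 TPM in control libraries against 1645 and 1951 TPM in depleted ones. The groups did not overlap, and the log2 fold change was 1.10 ± 0.35. Without negative control replicate 1 it was 0.82, without depleted replicate 2 it was 0.98, and neither passed.

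S100A16, a broadly expressed member, had 114.1 and 177.4 TPM in control libraries against 296.2 and 367.2 TPM in depleted ones, a log2 fold change of 1.21 ± 0.38. S100A11, the partner of annexin A1, had 1138 and 1438 TPM against 2378 and 2768 TPM, a log2 fold change of 1.00 ± 0.35. In both genes the depleted values were all above the control values. S100A13, which takes part in the release of FGF1 and IL1A without a signal peptide, had 56.4 and 52.9 TPM in control libraries against 91.3 and 140.2 TPM in depleted ones, a log2 fold change of 1.04 ± 0.40. S100A6, which binds the adaptor CACYBP, had 15977 and 16477 TPM in control libraries against 21984 and 35471 TPM in depleted ones. Its controls were close together and its depleted libraries far apart, and the log2 fold change of 0.78 ± 0.31 lay at the edge of the threshold. Under median-ratio scaling S100A6 was not called, which left 6 members called higher where 10.8% of all tested genes were.

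The remaining members did not pass. S100A3, a cysteine-rich protein of the hair cuticle, had 18.5 and 29.8 TPM in control libraries against 32.7 and 47.2 TPM in depleted ones, which did not overlap, with a log2 fold change of 0.72 ± 0.43. S100A2, found in epithelial cells, had 28.9 and 43.2 TPM in control libraries against 22.5 and 37.0 TPM in depleted ones. Its groups overlapped, its log2 fold change was -0.28 ± 0.43, and it was the single tested member below 0, turning to 0.06 without depleted replicate 1. S100A14, an epithelial member, was at 1.06 TPM in negative control replicate 1, 0.359 TPM in depleted replicate 2 and a listed 0 in the others. It fell below the minimum for testing of 1 TPM in 2 libraries. The other 9 members had at least 1 TPM in all 4 libraries, so none passed that minimum through the depleted group alone.

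The libraries within a group were not alike for this family. Depleted replicate 2 was higher than depleted replicate 1 for all 9 tested members, and negative control replicate 2 was higher than replicate 1 for 7 of them, the exceptions being S100P and S100A13. The count of members past the threshold was 1, S100P, when negative control replicate 1 was left out and again when depleted replicate 2 was. It was 4 in the absence of negative control replicate 2 and 7 in that of depleted replicate 1. In each of these fits the lone library of a group is assumed to vary like the other group.

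The members share a short coding sequence, and fold change followed coding length across the whole table. Over 11525 tested genes with a known coding length the Spearman correlation of coding length with log2 fold change was -0.456, a description over genes that share the same 4 libraries. The median log2 fold change was 0.66 for the 611 tested genes of up to 400 nt. It was 0.38 for the 2055 genes above 400 and up to 800 nt, and -0.94 for the 1347 genes above 3200 nt. Among the genes of up to 400 nt, 27.5% passed upward and 62.8% had higher, non-overlapping depleted values, a band set after the values were seen. With the trend on coding length removed, 2 members passed upward, S100P with a log2 fold change of 2.28 ± 0.40 and S100A10 with 0.73 ± 0.21, and 0 passed downward. By that fit 7.93% of all tested genes passed upward and 12.8% downward, and the median of the 9 members was 0.40. S100A4 was then at 0.48 ± 0.25, S100A6 at 0.11 ± 0.18 and S100A2 at -0.92 ± 0.37. That setting also removes any part of the trend that belongs to the depletion, and what the length trend contributes to the members' differences was not tested further.

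**Figure D2:**
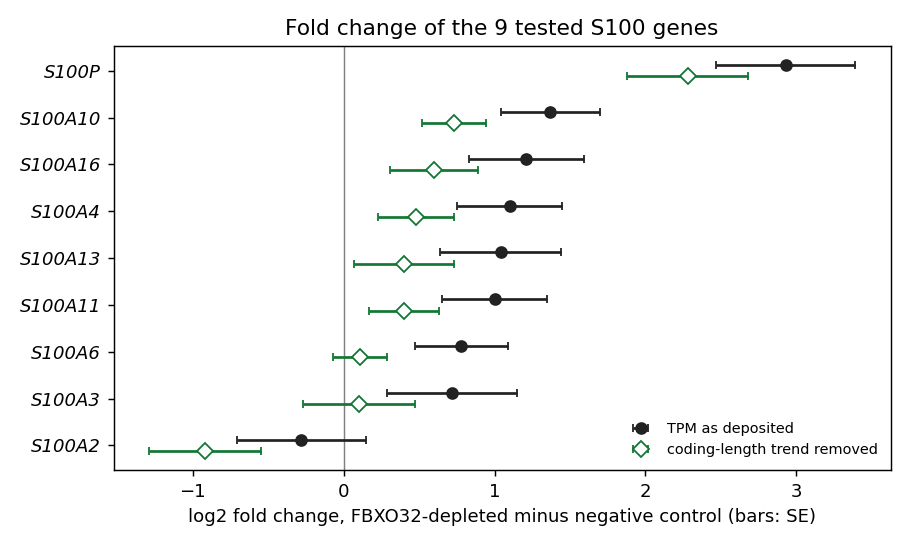
Log2 fold change (FBXO32-depleted minus negative control, bars are SE from limma) of the 9 tested S100 genes, from the TPM as deposited (black circles) and with the coding-length trend removed (open green diamonds). After removal S100P goes from 2.93 to 2.28, S100A10 from 1.37 to 0.73, S100A6 from 0.78 to 0.11 and S100A3 from 0.72 to 0.10.

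**Figure D3:**
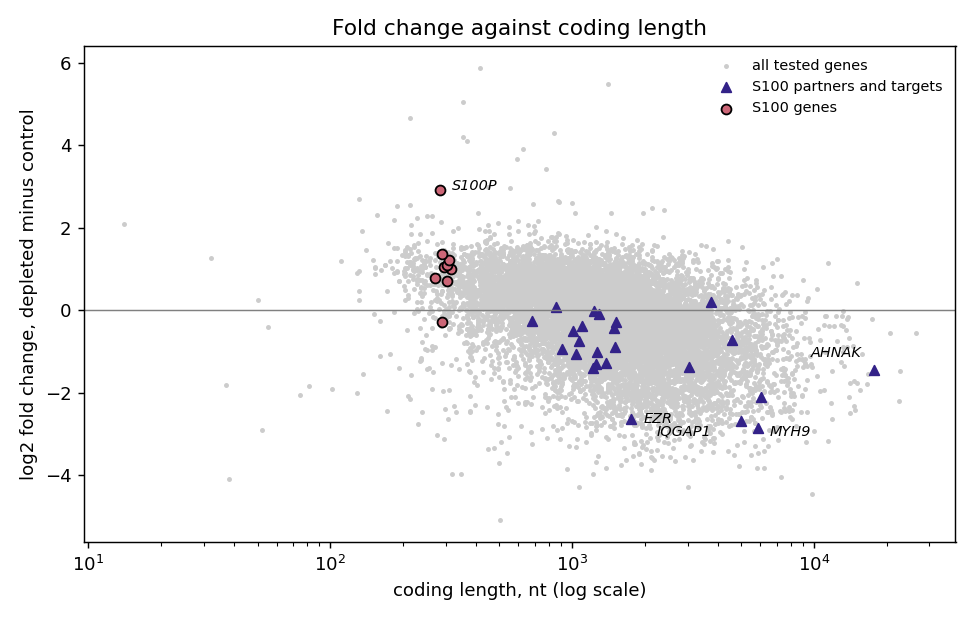
Log2 fold change of all tested genes with a known coding length (grey), the S100 genes (red circles) and their binding partners and targets (blue triangles), against coding length on a log scale. The S100 genes sit at the short end, between 270 and 315 nt, and the called partners EZR, IQGAP1, MYH9 and AHNAK at longer lengths below 0.

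Among genes for partners and targets of S100 proteins, together called partners here, 10 were lower and 0 higher after depletion. The counts of lower genes in this paragraph include AGER. It met the minimum for testing through the controls alone, so it could only be called lower. Of 30 on a list of S100 partners and targets, 24 were tested, with a median coding length of 1335 nt. Of these, 10 fell, 0 rose and 14 were not called (limma, adjusted p under 0.05), with a median log2 fold change of -0.91. By the same threshold 6.21% of all tested genes passed upward and 19.5% downward. At an unadjusted p under 0.05, 14 partners were lower and 0 higher, against 2956 lower and 1374 higher of all 11623 tested genes. In 16 of the 24 both depleted values were below both control values, as in 37.6% of all tested genes. The list was chosen with earlier results of these data known, so its calls and p-values are a description. MYH9, the heavy chain of non-muscle myosin IIA bound by S100A4, had 328.4 and 212.1 TPM in control libraries against 43.7 and 29.3 TPM in depleted ones (log2 fold change -2.85 ± 0.40, limma adjusted p = 9.86e-11). IQGAP1, a scaffold of the cell cortex that binds S100P, had 298.9 and 190.6 TPM against 24.6 and 52.7 TPM (-2.69 ± 0.40, limma adjusted p = 1.33e-09). EZR, the ezrin that S100P activates, had 443.1 and 341.7 TPM against 70.1 and 53.9 TPM (-2.64 ± 0.39, limma adjusted p = 8.68e-10). All depleted values of these 3 genes were below all control values, and their calls held without any single library and with the coding-length trend removed.

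The other partners that fell were MYH10, the heavy chain of myosin IIB (-2.11 ± 0.48), AHNAK, a giant scaffold bound by the S100A10 and annexin A2 complex (-1.45 ± 0.43), and S100PBP, a nuclear protein that binds S100P (-1.41 ± 0.45). They also included PPFIBP1, the liprin beta 1 bound by S100A4 (-1.38 ± 0.41), the co-chaperone FKBP4 (-1.28 ± 0.41) and ANXA1 (-1.05 ± 0.38). The call of ANXA1 ended under median-ratio scaling (log2 fold change -0.85, limma adjusted p = 0.106) and with the replicate block (limma adjusted p = 0.0689). AGER, which encodes RAGE, was the tenth partner called, with 2.40 and 1.90 TPM in control libraries against 0.24 and 0.297 TPM in depleted ones. It met the minimum for testing through the controls alone, so a call could come in that direction only. Nothing is read from that call, although it stands in the counts above. It lies below the level set for named partners and was picked after its values were seen. With the coding-length trend removed the calls of AHNAK (log2 fold change -0.11), MYH10 (-1.07), PPFIBP1 (-0.60) and AGER (-1.13) ended, STUB1 was called (-1.01), and the list had 7 falls. Leaving out negative control replicate 1 gave 3 partners that fell, depleted replicate 2 gave 5, negative control replicate 2 gave 8, and depleted replicate 1 gave 12. Listed partners and targets near 0 included PLAU, the urokinase (-0.08 ± 0.38), and CAPZA1, the capping protein subunit (0.07 ± 0.40).

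The annexin partners can be set beside their S100 genes within each library. ANXA2 had 2584 and 2579 TPM in control libraries against 2304 and 1028 TPM in depleted ones, and did not pass (log2 fold change -0.75 ± 0.35, limma adjusted p = 0.0971). The ratio of S100A10 to ANXA2 TPM was 1.10 and 1.42 among controls, and 3.13 and 9.35 after depletion. ANXA1 had 304.1 and 310.4 TPM in control libraries against 246.6 and 88.2 TPM in depleted ones, and the ratio of S100A11 to ANXA1 TPM was 3.74 and 4.63 against 9.65 and 31.4. Both ratios were higher in each depleted library than in each control, and in both pairs depleted replicate 2 stood furthest from the controls. S100A10 was chosen as higher in this contrast and S100A11 is on the same list, so the ratios are a description only. These ratios concern genes of unequal coding length, with 1071 nt for ANXA2 and 1038 nt for ANXA1.

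**Figure D4:**
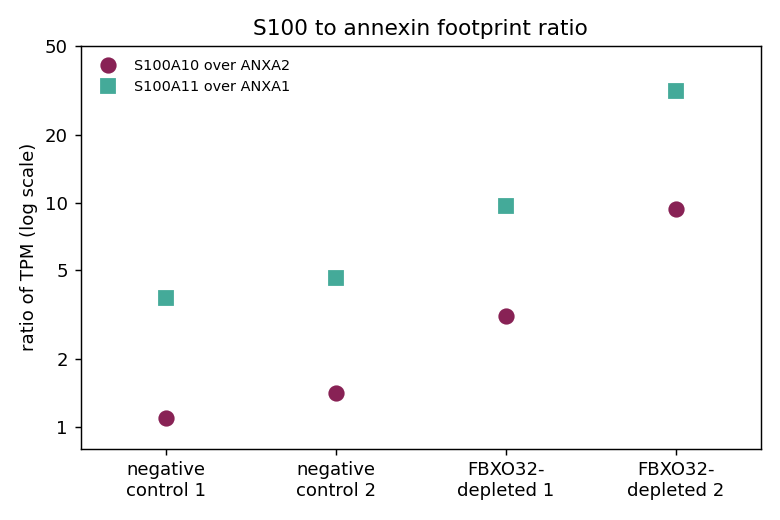
Ratio of S100A10 to ANXA2 TPM (circles) and of S100A11 to ANXA1 TPM (squares) in each of the 4 libraries, on a log scale. The control ratios are 1.10 and 1.42 and 3.74 and 4.63, and depleted replicate 2 has the highest of each, at 9.35 and 31.4.

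Other EF-hand genes had few calls, with a share of falls near the 19.5% of all tested genes. Of 34 on the list 28 were tested, 5 fell, 0 rose and 23 were not called (limma), with a median log2 fold change of 0.27, and 1 rose under median-ratio scaling. Depleted values were all above control values in 13 of the 28 and all below in 7, against 26.8% and 37.6% of all tested genes. At an unadjusted p under 0.05, 7 were lower and 1 was higher, against 2956 lower and 1374 higher of all 11623 tested genes. Those that fell were RCN1 (-1.53 ± 0.45), a calcium-binding protein of the endoplasmic reticulum, the calmodulin-like gene CALML4 (-1.32 ± 0.48), the centrin gene CETN3 (-1.16 ± 0.43), the calpain subunit gene CAPN2 (-1.14 ± 0.40) and the nucleobindin gene NUCB2 (-1.11 ± 0.41). Leaving out negative control replicate 1 gave 0 falls, depleted replicate 2 gave 1 and negative control replicate 2 gave 2, as many as under median-ratio scaling. The difference between the EF-hand list and the members was not tested.

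With the TPM as deposited, the genes around the members had shares of calls near those of all tested genes, but a lower median. Of 64 other genes that start within 500 kb of a member, among them the 7 fused-type genes with an S100 domain, 34 were tested, 7 fell (limma), 1 rose and 26 were not called, around a median of -0.50 on the log2 scale. Over all tested genes 19.5% fell and 6.21% rose. The gene that rose, ENSG00000285641, had 16.8 and 41.3 TPM in control libraries against 65.8 and 48.4 TPM in depleted ones, and was named after its values were seen. Its call lay at the edge of the threshold (limma adjusted p = 0.0488) and ended with the coding-length trend removed (log2 fold change 0.74). It overlaps RAB13 on the same strand, so the source of reads from that overlap is uncertain. Under median-ratio scaling 7 of the 34 neighbours rose and 5 fell, where 10.8% of all 11623 tested genes rose and 1904 of them fell.

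The rest of the S100 family was at or near 0. Of 10 other S100 genes 4 were listed at 0 in all libraries, and among the 8 not tested no value exceeded 0.941 TPM. S100A1 had 0.579 and 1.24 TPM in control libraries against 1.38 and 2.43 TPM in depleted ones, and S100Z had 1.11 and 1.03 TPM against 0.881 TPM and a listed 0. S100Z met the minimum for testing through the controls alone and S100A1 through 1 control and both depleted libraries, and neither was called. S100A8 and S100A9, the calprotectin genes of myeloid cells, were listed at 0 apart from 0.486 TPM of S100A9 in negative control replicate 1. The 7 fused-type genes that carry an S100 domain, such as FLG, did not exceed 0.434 TPM.

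The genes with the pattern closest to a member over the 4 libraries were found by the Euclidean distance between centred log2(TPM + 1) values among 11622 other tested genes. For S100P they were ORAI3 (distance 0.376), a calcium channel subunit, AQP3 (0.578), a water and glycerol channel, and GATC (0.618). For S100A10 they were TMEM230 (0.0434), GGACT (0.0456), which was listed at 0 in negative control replicate 1, and OAZ2 (0.0689), an antizyme. For S100A4 they were SF3B5 (0.0479), a splicing factor subunit, MPV17L2 (0.0542) and QPCT (0.0585). In likeness to S100A4, S100A16 ranked 33, S100A11 129, S100A10 446, S100A13 1242 and S100A6 1435. In likeness to S100P, the ranked members lay between 195 (S100A10) and 1155 (S100A6). The likeness rests on 4 libraries, and these names are a description.

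Epithelial keratin genes of the labelled carcinoma line were detected at uneven levels. KRT8, KRT18 and VIM, the keratin and vimentin genes, were between 119.8 and 1837 TPM in every library, KRT19 was between 10.4 and 30.5 TPM and KRT7 between 0.885 and 3.60 TPM. Of 7 markers of other cell types, 6 were below 1 TPM in all libraries, and COL1A1, a fibroblast marker, had 110.6 and 86.5 TPM in control libraries against 35.3 and 39.0 TPM in depleted ones. Outside those markers, immunoglobulin genes reached the minimum for testing. Their log2 fold changes were -3.98 for IGKC, -3.02 for IGHG1, -2.97 for IGHA1 and -1.32 for IGHG2. These genes were named after their values were seen, and the source of their reads was not tested. FBXO32 itself had 18.1 and 21.6 TPM in control libraries against 14.3 and 12.9 TPM in depleted ones (limma adjusted p = 0.429), so depletion is known from the labels. KRT8 (log2 fold change -1.27, limma adjusted p = 0.00574), VIM (-1.14, 0.00844), KRT18 (-0.93, 0.0402) and COL1A1 (-1.37, 0.00578) were called lower, with both depleted values below both control values. The calls of VIM and KRT18 ended under median-ratio scaling, and those of VIM, KRT18 and COL1A1 with the coding-length trend removed. KRT8, KRT18 and VIM were lowest in depleted replicate 2, and the part of these genes in the S100 differences was not tested.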

How the data were processed

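The deposited table gives TPM per gene and library, per the file headers, and each column sums to 1000000. Bowtie2 2.2.8, fastp, RSEM, STAR, DESeq2 and the build GRCh38 appear in the submitters' processing notes without a stated role; annotation and length definition: not given in the sources used here. Depth is unknown. Columns named KO were read as FBXO32-depleted and NS as negative control. Symbols were found for 19702 of 20307 identifiers. Positions, coding lengths (longest annotated coding sequence) and sequences come from GENCODE release 29.

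Log2(TPM + 1) was fitted with limma 3.58.1 in R 4.3.3 (trend and robust moderation, no covariates) on the 11623 genes reaching 1 TPM in 2 or more libraries, with Benjamini-Hochberg adjustment over all of them (threshold 0.05). With 2 residual degrees of freedom, 10272 genes took the pooled spread. The fit was tested on simulated data. Coding-length trends were removed by lowess in each library; sequences were compared with Biopython 1.88. Members and lists were chosen with earlier results of these data known. Named were all members, other tested S100 genes, called partners and EF-hand genes with a mean of at least 5 TPM, and the 3 genes closest to S100P, S100A4 and S100A10. Alternatives covered scaling, pseudocount, filters, moderation, replicate block, coding length and single libraries. Some results on listed genes are not reported here.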

Additional observations from a re-analysis of the deposited data

How the results depend on the processing

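Calls depended more on the library left out than on most settings, and the causes were not tested. Leaving out single libraries gave 1 to 7 members called higher and 0 lower, 3 to 12 partners lower, 0 to 4 EF-hand genes lower, 0 to 2 neighbours higher and 2 to 6 lower, and 91 to 618 of all genes higher and 723 to 2394 lower. Without the filter on low values 2 members were called higher, 6 partners, 3 neighbours and 1 EF-hand gene lower, 0 neighbours higher, and 207 of all genes higher and 1322 lower. Without the variance trend 4 members and 0 neighbours were higher. With the coding-length trend removed 2 members were higher and 1474 of all genes lower. Median-ratio scaling shifted the all-gene median from -0.16 to 0.02 on the log2 scale, and gave 1251 genes higher, 7 neighbours and 1 EF-hand gene higher and 2 EF-hand genes lower. A pseudocount of 0.1 gave 1 EF-hand gene higher, and a minimum of 5 TPM gave 1 EF-hand gene and 2 neighbours higher. With the replicate number as a block 5 members, 489 of all genes and 0 neighbours were higher and 3 EF-hand genes lower. Replicate numbers share only a number here (correlation of deviations -0.0488). S100A2 turned from -0.28 to 0.06 without depleted replicate 1, and single libraries left out gave -0.63 to 0.06. TPM carries no depth, so counting error is unknown.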
